A study of Mus musculus with 28 samples.

Results

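In the ovary transcriptome, 8 members of the TNF receptor superfamily, *Eda2r*, *Tnfrsf12a*, *Tnfrsf10b*, *Fas*, *Tnfrsf1a*, *Tnfrsf1b*, *Tnfrsf21* and *Ltbr*, were followed through irradiated and non-irradiated mouse ovaries. They were chosen by symbol as a list of death and TNF family receptors, and all 8 were found among the 44674 genes of the bulk table and among the 26790 genes with enough counts to be tested. Receptors of this family sit in the cell membrane and are switched on by trimeric ligands of the TNF family. Those with an intracellular death domain (*Fas*, *Tnfrsf1a*, *Tnfrsf10b* and *Tnfrsf21*) can recruit adaptors and caspases, while the others (*Eda2r*, *Tnfrsf12a*, *Tnfrsf1b* and *Ltbr*) bind TRAF proteins and signal mainly to NF-κB and stress kinases. *Eda2r*, *Tnfrsf10b* and *Fas* are known as p53 targets in other tissues, and in the ovary death receptors have long been studied for their part in the loss of oocytes and granulosa cells.

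The ovaries came from wild-type females (C57BL/6J is the source strain named in the methods) and from *Chek2*-/- females, which carry the tm1b(EUCOMM)Hmgu allele of *Chek2*, the gene of a checkpoint kinase that relays double-strand breaks to p53 and TAp63. Females of 7 to 9 days of age received whole-body gamma irradiation of 0.5 Gy (IR) or a sham exposure (non-IR, 0 Gy), and ovaries were collected 6 h later. Bulk mRNA libraries were made from paired ovaries, with 6 libraries in each of the 4 groups and 24 in all, and held 17825167 to 32605747 counts. Single-cell libraries were made from the pooled ovaries of 4 females of 7 days of age per condition, with 1 library per condition, so differences between these libraries have no replicate check. *Chek2* itself was at 22.4 ± 1.66 CPM (TMM-scaled counts per 1000000 counts; SD, n = 6) in non-IR wild-type and 3.75 ± 0.545 CPM in non-IR *Chek2*-/- libraries, a fall of 5.97-fold (edgeR adjusted p = 7.45e-15), so RNA from the locus was reduced but not lost.

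A few libraries stood apart. In the *Chek2*-/- groups the libraries numbered 6 held a summed oocyte list of 1058 CPM without and 1188 CPM with IR, against medians of 2020 CPM in both groups, and a summed epithelial list of 1181 and 1009 CPM against medians of 610 and 566 CPM. Their summed granulosa list was 791 and 787 CPM, where the other 22 libraries held 1285 to 1879 CPM. Their summed pericyte list was 806 and 663 CPM, where the other 22 held 393 to 616 CPM. *Chek2*-/- non-IR replicate 5 and IR replicate 2 held a summed erythroid list of 10530 and 7082 CPM, against 199 to 926 CPM elsewhere. Wild-type IR replicate 3 and *Chek2*-/- IR replicate 2 held a summed neutrophil list of 1194 and 1312 CPM, where the other libraries held 1.16 to 18.3 CPM, and a lymphocyte list of 12.2 and 11.9 CPM, where the others held 4.20 to 7.34 CPM. Results that turn on these libraries are given with and without them.

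In wild-type ovaries IR raised *Eda2r*, the receptor for the A2 form of ectodysplasin, and *Tnfrsf10b*, the mouse TRAIL receptor. These were 2 of 8 members, where 2.41% of all genes tested passed the adjusted p of 0.05 in either direction, 1.53% passed it as higher and 11.4% had an unadjusted p under 0.05. The median log2 fold change of the 8 members was 0.12 with 8 of 8 above 0, against a median of 0.00 and 48.7% of genes above 0 over all genes tested. *Eda2r* stood between 14.5 and 18.9 CPM (median 16.6) in non-IR and between 49.6 and 63.0 CPM (median 57.2) in IR libraries. The groups did not overlap, as held for 1.68% of all genes in this direction, and the lowest IR library lay well above the highest non-IR library. The mean went from 16.6 ± 1.83 to 56.7 ± 4.28 CPM (SD, n = 6), a log2 fold change of 1.78 (SE 0.08) or 3.43-fold (edgeR adjusted p = 4.48e-14). With at least 2-fold also required, *Eda2r* was the 1 member left, where 1.08% of all genes were. *Tnfrsf10b* stood between 19.8 and 23.7 CPM (median 22.8) without IR and between 30 and 35.6 CPM (median 32.9) with it. Again no IR library reached down to the non-IR libraries, and the difference was of 1.47-fold (log2 0.56, SE 0.07, edgeR adjusted p = 1.11e-05). In bulk tissue a change in the number of cells of a type and a change in RNA per cell cannot be told apart. Summed over their lists, oocyte markers had medians of 2240 and 2070 CPM and granulosa markers of 1490 and 1470 CPM in the non-IR and IR groups.

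The other 6 members did not pass the test in wild-type ovaries and their groups overlapped. *Fas*, the receptor for FasL, was at 5.45 ± 1.10 CPM without and 6.28 ± 0.872 CPM with IR (SD, n = 6), and the 95% limits of its log2 fold change of 0.21 ran from -0.30 to 0.72 (edgeR adjusted p = 0.885). *Tnfrsf12a*, also known as Fn14 and the receptor for TWEAK, ranged from 31.2 to 44.0 CPM (median 35.3) without and from 30.9 to 49.0 CPM (median 37.8) with IR, with limits of -0.23 to 0.35 (log2 0.06, edgeR adjusted p = 0.963). These limits allow a rise in *Fas* that is larger than the one measured for *Tnfrsf10b*, and no such rise in *Tnfrsf12a*. *Tnfrsf1a*, the main TNF receptor of most tissues, went from 115 ± 17.2 to 122 ± 4.31 CPM (log2 0.08, limits -0.10 to 0.26). *Tnfrsf1b*, the second TNF receptor, went from 35.1 ± 2.71 to 37.4 ± 9.10 CPM (log2 0.09, limits -0.25 to 0.43). *Tnfrsf21*, also called DR6, went from 10.6 ± 0.308 to 11.7 ± 1.49 CPM (log2 0.15, limits -0.11 to 0.40). *Ltbr*, the lymphotoxin beta receptor, had the narrowest limits of these 6, at -0.15 to 0.18 around a log2 fold change of 0.02.

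**Figure D1:**
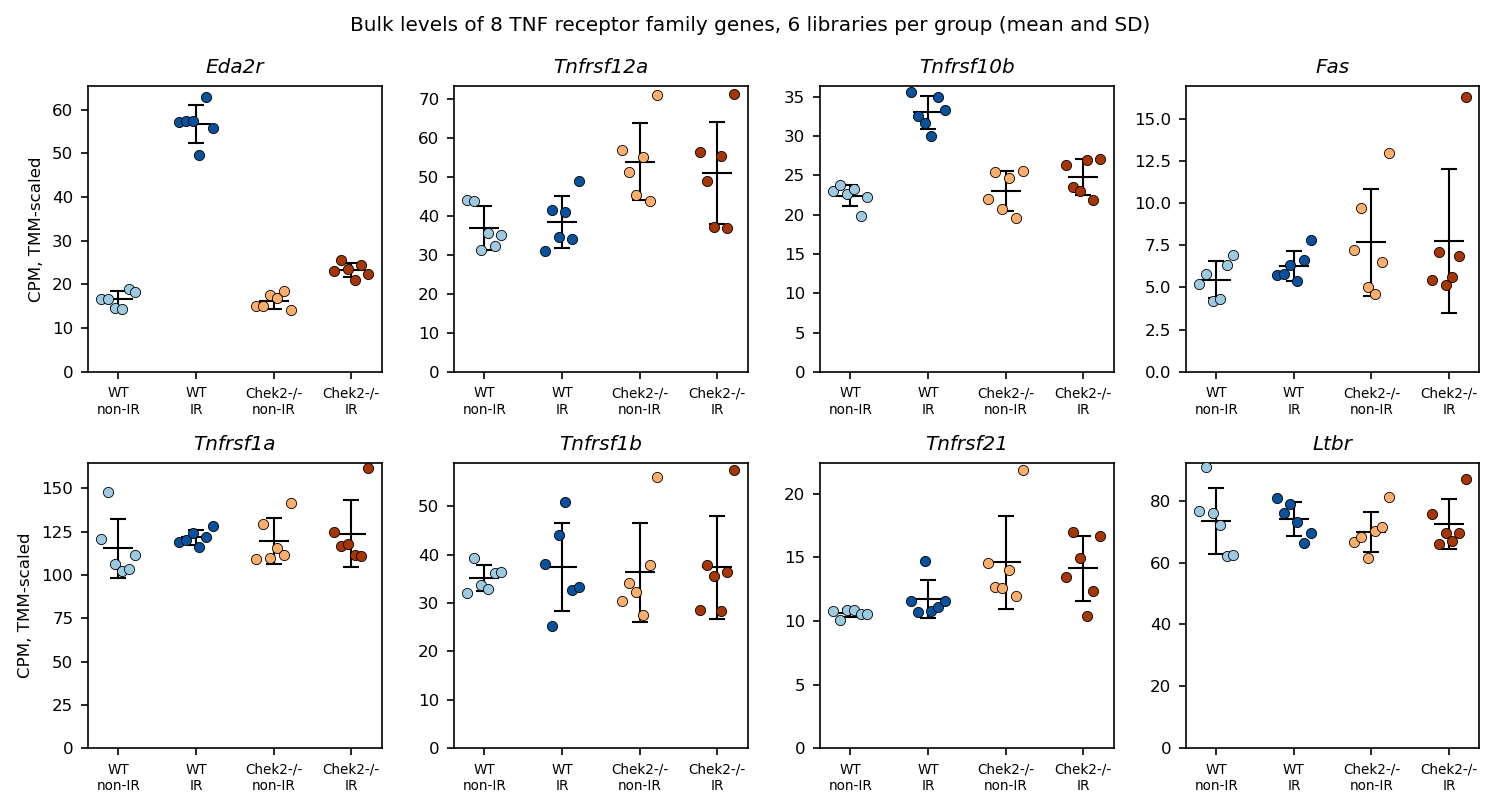
Bulk level of each of the 8 receptors in CPM (TMM-scaled, linear axis from 0) in the 4 groups, with 1 point per library and the mean and SD of 6 libraries as bars. *Eda2r* sat at 49.6 to 63.0 CPM in wild-type IR ovaries and at 25.6 CPM or below in the other 3 groups, and *Tnfrsf10b* at 30 to 35.6 CPM against 27.1 CPM or below.

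In *Chek2*-/- ovaries *Eda2r* was 1 of the 3 genes that passed the test at all, 0.0112% of those tested (4.4% had an unadjusted p under 0.05), and it was higher after IR. It ranged from 14.1 to 18.4 CPM (median 16.0) without and from 21.1 to 25.6 CPM (median 23.3) with IR. The groups did not overlap, as was the case for 0.0896% of all genes in this direction. The difference was 1.44-fold (log2 0.53, SE 0.08, edgeR adjusted p = 0.00427), and the adjusted p was 0.0977 when only the 12 *Chek2*-/- libraries were fitted, at a log2 fold change of 0.52. It stayed below 2-fold, which 0.00373% of genes passed. *Tnfrsf10b* ranged from 19.6 to 25.5 CPM (median 23.3) and from 21.9 to 27.1 CPM (median 24.9), and these ranges overlapped (log2 0.11, edgeR adjusted p = 1). The remaining 6 members had log2 fold changes between -0.08 and 0.05 in this genotype, with *Fas* at 7.67 ± 3.16 CPM without and 7.73 ± 4.27 CPM with IR (SD, n = 6). The wide spread of *Fas* came with *Chek2*-/- replicate 6 of each group, at 12.9 and 16.3 CPM. Without both libraries its log2 fold change was -0.14, and over all alternatives it ran from -0.36 (without IR replicate 6) to 0.26 (oviduct list as a covariate). *Tnfrsf1b* ran from -0.13 to 0.21 and *Tnfrsf12a* from -0.20 to 0.02, and each of the 6 members had values on both sides of 0 and passed in none of the alternatives.

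The size of the IR effect differed between genotypes for the same pair of genes, where 1.03% of all genes passed this test in either direction, 0.694% with a larger wild-type value, 0.623% with at least 2-fold and 9.14% at an unadjusted p under 0.05. For *Eda2r* the log2 effect in wild-type ovaries was larger by 1.25 (SE 0.11, adjusted p = 9.4e-08 by edgeR), and the difference stayed between 1.21 and 1.3 under every alternative run. For *Tnfrsf10b* it was larger by 0.45 (SE 0.10, edgeR adjusted p = 0.0216). That call ended with the oviduct marker list as a covariate (adjusted p = 0.121) and without the 2 libraries of high neutrophil level (adjusted p = 0.0578), at log2 differences between 0.42 and 0.50 over all alternatives. The other 6 members had differences of -0.04 to 0.20 and did not pass. Over the alternatives *Fas* ran from -0.27 (oviduct list as a covariate) to 0.58 (without *Chek2*-/- IR replicate 6) and *Tnfrsf1b* from -0.26 to 0.24 in the same fits, at 0.35 and 0.05 without both *Chek2*-/- libraries numbered 6, and neither passed in any of them.

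**Figure D2:**
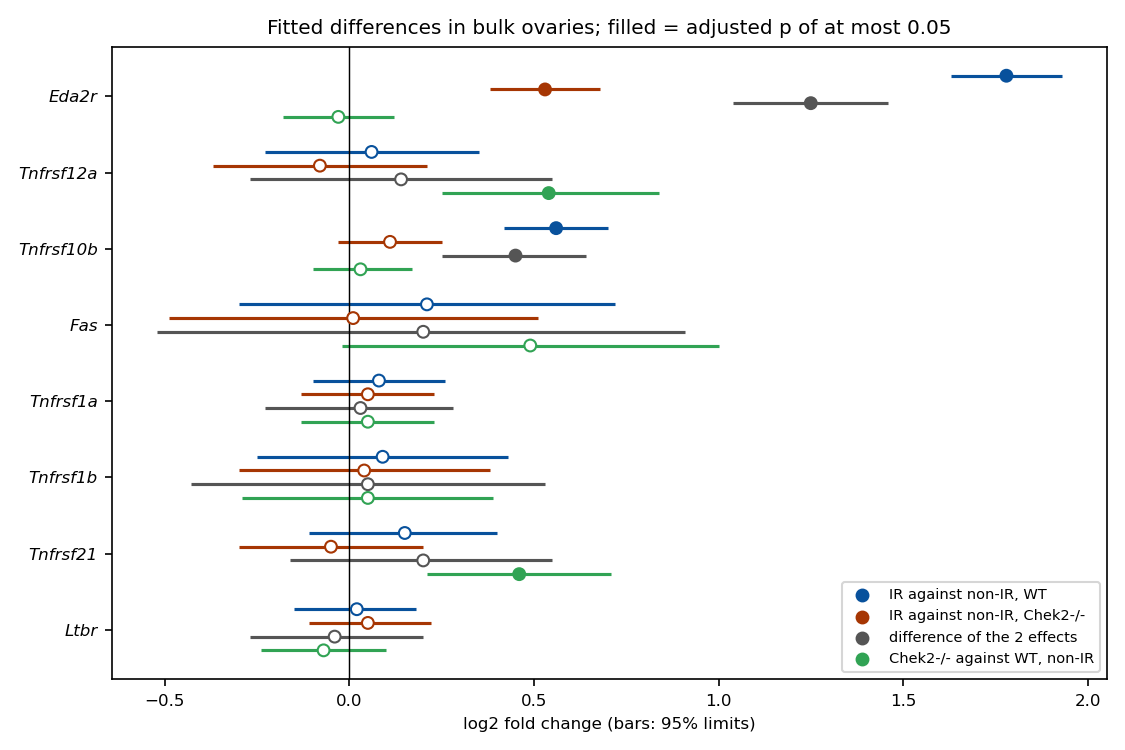
Fitted log2 fold change of each receptor in bulk ovaries for IR against non-IR in each genotype, the difference of these effects, and non-IR *Chek2*-/- against non-IR wild-type ovaries, with 95% limits as bars and filled points for an edgeR adjusted p of at most 0.05. *Eda2r* at 1.78, 0.53 and 1.25 and *Tnfrsf10b* at 0.56 and 0.45 are the filled points of the IR contrasts, and *Tnfrsf12a* and *Tnfrsf21* are filled only between genotypes.

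Without IR, *Chek2*-/- ovaries held more *Tnfrsf12a* and *Tnfrsf21* RNA than wild-type ovaries. These 2 of 8 members stand against 5.34% of all genes that passed the test between genotypes in either direction and 3.12% that were higher. At an unadjusted p under 0.05 it was 21.6%, and neither member reached the 2-fold that 0.788% of genes reached. *Tnfrsf12a* stood at 31.2 to 44.0 CPM in wild-type libraries and at 43.9 to 70.8 CPM (median 53.2) in *Chek2*-/- libraries, so the lowest *Chek2*-/- library lay just under the highest wild-type library. The difference was 1.46-fold (log2 0.54, SE 0.15, edgeR adjusted p = 0.0337). *Tnfrsf21* stood at 10.1 to 10.9 CPM in wild-type libraries and at 12 to 21.9 CPM (median 13.3) in *Chek2*-/- libraries, without overlap, which 1.68% of all genes showed in this direction. The difference was 1.38-fold (log2 0.46, SE 0.13, edgeR adjusted p = 0.0371). Both calls lay close to the threshold. *Tnfrsf12a* lost its call when wild-type replicate 3, 4, 5 or 6 or *Chek2*-/- replicate 1, 2, 4 or 6 was left out (edgeR adjusted p = 0.0513 to 0.0867). *Tnfrsf21* lost its call without wild-type replicate 1, 2, 3, 4 or 6 or *Chek2*-/- replicate 1, 4 or 6 (edgeR adjusted p = 0.0514 to 0.0845). Without *Chek2*-/- replicate 6 of each group the log2 differences were 0.45 (edgeR adjusted p = 0.0389) for *Tnfrsf12a* and 0.31 (edgeR adjusted p = 0.0593) for *Tnfrsf21*. *Chek2*-/- replicate 6 held an oviduct list of 173 CPM where wild-type non-IR libraries held 79.9 to 102 CPM, and with that list as a covariate neither gene passed (edgeR adjusted p = 0.0556 and 0.0782). Its part in the result was not tested beyond that fit. The same library held a pericyte list of 806 CPM, where wild-type non-IR libraries held 435 to 535 CPM. In the single-cell libraries pericyte-like cells had the highest *Tnfrsf21* level, and the part of the pericyte list was not tested. The summed fibroblast list had medians of 5010 CPM in wild-type and 4200 CPM in *Chek2*-/- non-IR libraries, with ranges of 4484 to 5768 and 3477 to 4868 CPM, and its part was not tested. *Eda2r* and *Tnfrsf10b* had log2 differences of -0.03 and 0.03 between the genotypes without IR (edgeR adjusted p = 0.858 and 0.841). The methods name no strain background for the *Chek2*-/- line and do not say whether the wild-type females were its littermates. Genotype therefore cannot be told apart from line or background in any comparison of the genotypes without IR.

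The wider pathway moved at few points. Of 20 other TNF family receptors 0 passed in any of the 4 contrasts by edgeR, DESeq2 or limma-voom. At an unadjusted p under 0.05 there were 4 of the 20 in wild-type IR ovaries, 2 in *Chek2*-/- IR ovaries, 2 for the difference between them and 0 between genotypes without IR, where the shares over all genes were 11.4%, 4.4%, 9.14% and 21.6%. *Cd27*, a receptor of lymphocytes, was among these in *Chek2*-/- ovaries, at 0.665 CPM without and 1.04 CPM with IR (edgeR adjusted p = 0.595). Its log2 fold change was 0.63, and 0.58 without the *Chek2*-/- IR replicate 2 of high lymphocyte level (edgeR adjusted p = 0.919). Of 17 ligands 0 passed by edgeR or DESeq2, with 0 at an unadjusted p under 0.05 in the 3 IR contrasts and 2 between genotypes without IR, and limma-voom called 1 ligand there, *Tnfsf18*, the ligand of GITR. Of the 17 ligands, *Eda*, the ligand gene of *Eda2r*, was at 7.74 and 7.15 CPM in wild-type ovaries (log2 -0.12), *Tnfsf12*, the ligand of *Tnfrsf12a*, at 15.6 and 15.0 CPM (log2 -0.06), and *Tnfsf10*, which encodes TRAIL, at 5.50 and 6.51 CPM (log2 0.24). *Fasl* was near 0, at 0.0272 and 0.0661 CPM. Of 19 adaptors and death complex genes 2 rose in wild-type ovaries, where 2.41% of all genes were called and 1.53% as higher. *Traf3*, which restrains the alternative NF-κB pathway and binds *Ltbr* and *Eda2r* proteins, ranged from 59.8 to 68.9 CPM (median 62.6) without and from 79.3 to 113 CPM (median 84.2) with IR. The groups did not overlap, as held for 1.68% of all genes in this direction, and the change was 1.41-fold (log2 0.49, SE 0.09, edgeR adjusted p = 0.000703). *Edaradd*, the adaptor of the sister receptor EDAR, ranged from 0.492 to 0.930 CPM and from 1.28 to 3.58 CPM and rose 2.88-fold (log2 1.53, SE 0.30, edgeR adjusted p = 0.00348). By edgeR neither adaptor passed the test of the difference between genotypes (adjusted p = 0.151 for *Traf3* and 0.063 for *Edaradd*), while DESeq2 called 1 of the 19, *Edaradd*.

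Of 16 NF-κB subunits and response genes 0 passed after IR in wild-type ovaries by edgeR, DESeq2 or limma-voom, with 0 at an unadjusted p under 0.05 and a median log2 fold change of 0.01. Between the genotypes without IR 3 of the 16 were called by edgeR, all higher in *Chek2*-/- ovaries, where 5.34% of all genes were called in either direction and 3.12% as higher. DESeq2 called 5 and limma-voom 3, and 9 had an unadjusted p under 0.05, which 21.6% of all genes had. The median log2 difference was 0.39, and 15 of 16 lay above 0, against 51.7% of all genes. Without both *Chek2*-/- libraries numbered 6 the count was 4, with a median of 0.25 and 14 of 16 above 0. It was 2 without non-IR replicate 6 alone and 4 without both libraries of high erythroid level. *Cxcl1*, a neutrophil chemokine, stood at 2.64 to 7.90 CPM in wild-type and 10.3 to 48.0 CPM in *Chek2*-/- libraries and was 3.88-fold higher (edgeR adjusted p = 0.00442). *Icam1*, an adhesion molecule, was at 27.3 ± 6.52 and 47.4 ± 12.8 CPM (SD, n = 6; log2 0.80, edgeR adjusted p = 0.0256), and *Rel*, an NF-κB subunit, at 32.7 ± 2.13 and 45.2 ± 8.72 CPM (log2 0.47, edgeR adjusted p = 0.0216). Of the 19 adaptors and death complex genes edgeR called 1 between the genotypes, limma-voom 1 and DESeq2 3, and 6 had an unadjusted p under 0.05. The gene called by edgeR was *Traf5*, higher in *Chek2*-/- ovaries, at 15.5 ± 1.94 and 19.4 ± 1.18 CPM (log2 0.32, edgeR adjusted p = 0.0338). The call of *Icam1* was lost without *Chek2*-/- non-IR replicate 2 or 6 or wild-type non-IR replicate 3 or 4 (edgeR adjusted p of 0.0622, 0.0534, 0.0650 and 0.0738), and that of *Rel* without *Chek2*-/- replicate 2 or wild-type replicate 4 (0.0527 and 0.0523). *Traf5* lost its call without *Chek2*-/- replicate 1, 2, 4 or 6 or wild-type replicate 1, 2, 3 or 4, with edgeR adjusted p values from 0.0515 to 0.0854.

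Genes whose levels ran closest to those of the called members over the 24 bulk libraries were drawn from 15955 genes of at least 1 CPM on average. For *Eda2r* these were *Ccng1* (cyclin G1), *Ano3* and *Bbc3* (the BH3-only gene of PUMA), with Pearson r of 0.99, 0.98 and 0.96 of log2 CPM. Those values carry the group differences, and within groups the r were 0.35, 0.19 and 0.14. For *Tnfrsf10b* they were *Phlda3*, *Fam212b* and *Ccng1*, at 0.91, 0.91 and 0.89 over all libraries and 0.47, 0.46 and -0.02 within groups. For *Tnfrsf12a* they were *Sdc4* (the proteoglycan syndecan 4), *Frmd6* and *Ywhah*, each at 0.92, and here the r within groups were 0.89, 0.90 and 0.84. For *Tnfrsf21* they were *Cyp2j5*, *Fli1* and *Miga1* at 0.81, 0.79 and 0.79. The libraries share their groups and their cell mixtures, so these r are descriptions only.

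Promoter windows of 7 of the 8 members, all but *Tnfrsf10b*, were found in the RefSeq table of the mouse assembly GRCm38.p6. Each ran from 250 bases before to 50 bases after an annotated start. They are shown for *Eda2r* and its closest gene over the libraries, *Ccng1*, because both rose with IR, and for *Tnfrsf12a*, which did not pass the test after IR in bulk tissue of either genotype. The *Eda2r* gene (ENSMUSG00000034457) lies at chrX:97333840-97377216 on the minus strand and its window at chrX:97377160-97377459. The *Tnfrsf12a* gene (ENSMUSG00000023905) lies at chr17:23675445-23677468 on the minus strand and its window at chr17:23677400-23677699, and the *Ccng1* window lies at chr11:40755237-40755536, also on the minus strand. By the GENCODE annotation of GRCm38 *Tnfrsf10b* (ENSMUSG00000022074) lies at chr14:69767472-69784411, *Tnfrsf21* (ENSMUSG00000023915) at chr17:43016555-43089189, *Fas* (ENSMUSG00000024778) at chr19:34290666-34327772 and *Tnfrsf1a* (ENSMUSG00000030341) at chr6:125349362-125362484, all on the plus strand. *Tnfrsf1b* (ENSMUSG00000028599) at chr4:145213463-145246870 and *Ltbr* (ENSMUSG00000030339) at chr6:125306571-125313885 are on the minus strand. Capitals mark CATG, which occurs as a core of p53-type elements, in the first and second sequence. There it lies in no match to the 10-base p53 element consensus. In the third sequence capitals mark a match to that consensus.
Eda2r: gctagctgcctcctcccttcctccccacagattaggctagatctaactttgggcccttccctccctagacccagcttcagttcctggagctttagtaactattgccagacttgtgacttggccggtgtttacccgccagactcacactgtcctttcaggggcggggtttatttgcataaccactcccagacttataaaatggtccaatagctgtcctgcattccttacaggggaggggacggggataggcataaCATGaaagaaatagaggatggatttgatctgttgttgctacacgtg
Tnfrsf12a: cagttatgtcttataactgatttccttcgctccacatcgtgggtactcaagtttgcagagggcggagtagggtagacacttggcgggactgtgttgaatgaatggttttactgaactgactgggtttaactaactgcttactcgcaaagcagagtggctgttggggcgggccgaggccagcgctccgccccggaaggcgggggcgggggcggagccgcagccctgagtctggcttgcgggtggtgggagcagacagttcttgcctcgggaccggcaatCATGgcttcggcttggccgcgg
Ccng1: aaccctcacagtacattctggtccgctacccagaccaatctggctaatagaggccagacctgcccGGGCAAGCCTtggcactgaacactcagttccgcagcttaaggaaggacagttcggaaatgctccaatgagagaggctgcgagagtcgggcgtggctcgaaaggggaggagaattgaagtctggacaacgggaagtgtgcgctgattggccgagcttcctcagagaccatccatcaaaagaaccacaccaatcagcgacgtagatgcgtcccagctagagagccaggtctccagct
Scanned on both strands, 0 of the 7 member windows held the 10-base p53 element consensus, which 8.4% of 32851 windows held, and 0 held the kappa-B consensus, which 4.5% held. The scan covered only these windows and not *Tnfrsf10b*, so it does not show whether such elements lie elsewhere in or near these genes. The 4-letter CATG, found in 61.1% of windows, was in 2 of the 7. *Ccng1* had 1 match to the p53 element consensus, GGGCAAGCCT, that began 185 bases before the start. The windows of *Ano3*, *Bbc3* and *Phlda3*, which also ran close to *Eda2r* or *Tnfrsf10b* over the libraries, held no match to it.

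In the single-cell libraries 36524 cells were used, with a median of 15140 UMIs per cell and of 13908 to 17135 UMIs per library, and 142 cell barcodes occurred in 2 libraries. Clusters were named from marker lists. Oocyte-like cells (582), epithelial-like (726), endothelial-like (767) and macrophage-like cells (136) passed 8 of 8 of their markers, granulosa-like clusters (11882 cells) 6 or 7 of 7, fibroblast-like clusters (18522 cells) 8 of 8, pericyte-like cells (669) 7 of 7 and perivascular-like cells (1334) 6 of 6. The perivascular-like cells passed the 8 fibroblast markers too, and the pericyte-like cells passed 4 of 6 perivascular markers. The cells of 3 small clusters (197) were left unnamed and those of an erythroid cluster (158) were not used as a class, so both count only in values over all cells. A cluster of 1551 cells led by *Crygb*, *Adora1* and *Susd4* passed only 3 of 7 granulosa markers and stays unnamed as cluster 10, although at a finer clustering a cluster of 2032 cells led by *Crygb* and *Adora1* passed 5 of 7. Levels are UMIs of the gene per 1000000 UMIs (UPM) of a class in a library. The limits given are exact at 95% and cover counting error only, not differences between animals or libraries.

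Of the 72 pairs of class and receptor 58 had at least 20 UMIs in 1 library. Of these 58, 28 were above a ratio of 1 in wild-type cells after IR beyond counting error and 3 were below. In *Chek2*-/- cells 12 were above and 1 was below. With cells thinned to 3000 UMIs the pairs above 1 were 17 and 3. Over all genes in the 9 classes 17.3% were above and 17.5% below in wild-type and 12.2% above and 9.23% below in *Chek2*-/- cells. A pair could enter through the IR library in which it was high, as *Eda2r* did in cluster 10 on 1 and 44 UMIs, so these counts are a description and nothing is read from their excess over the shares.

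*Eda2r* was low in most non-IR cells, and in 8 of 9 classes of wild-type cells the limits of its ratio after IR lay above 1, in pericyte-like cells on few UMIs. Over all cells it was at 2.01 UPM without and 9.17 UPM with IR in wild-type libraries (ratio 4.56, limits 4.07 to 5.11) and at 1.90 and 2.71 UPM in *Chek2*-/- libraries (1.43, 1.24 to 1.65). Fibroblast-like cells held most of it before IR, with 84.0% of its UMIs in the wild-type non-IR library and 44.8% in the IR library, at 35.8% and 37.4% of all UMIs. Their level was 4.72 UPM and 11 UPM (ratio 2.33, 2.04 to 2.67). Oocyte-like cells went from 0.519 to 13.4 UPM on 15 and 180 UMIs (ratio 25.9, 15.3 to 47.3), granulosa-like cells from 0.437 to 8.05 UPM (18.4, 12.8 to 27.6) and endothelial-like cells from 1.03 to 9.79 UPM (9.52, 3.47 to 36.4). Cluster 10 had 1 UMI without and 44 with IR (ratio 23.1, 3.94 to 935), perivascular-like cells went from 1.31 to 7.83 UPM (5.97, 2.45 to 17.6) and epithelial-like cells from 0.429 to 3.25 UPM (7.58, 1.87 to 66.3). In each of these classes the lower limit was above 1. Pericyte-like cells had 0 UMIs without and 7 with IR (a lower 95% limit of 1.60 for the ratio, and 2.59-fold if the 7 UMIs are set against the 3 UMIs that a count of 0 allows), and macrophage-like cells had only 0 and 4 UMIs.

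Free RNA in a droplet library adds a low level of each abundant transcript to cells that do not make it, and markers of another cell type give its size. In the wild-type IR library the oocyte list stood at 2.74% to 14.5% of its level over all cells in 7 of the 8 non-oocyte classes, and these shares of the *Eda2r* level over all cells come to 0.251 to 1.33 UPM. The lower limit of *Eda2r* was above that value in each of the 7, with epithelial-like cells closest (2.06 against 1.33 UPM). In macrophage-like cells the oocyte list was at 45.7%, which comes to 4.19 UPM, so their 6.00 UPM is not read as expression. In oocyte-like cells the granulosa list was at 10.3%, which comes to 0.944 UPM where *Eda2r* had a lower limit of 11.5 UPM. Without IR the same measure came to 0.497 UPM in oocyte-like cells, within the limits of their 0.519 UPM (0.290 to 0.855), so their non-IR level is not above free RNA and the size of their ratio rests on that level. By the oocyte list the non-IR levels of epithelial-like cells and cluster 10 had lower limits under free RNA as well (0.0519 against 0.197 and 0.00509 against 0.0843 UPM). By the granulosa list epithelial-like cells and cluster 10 came to 3.79 and 7.13 UPM, above their *Eda2r* levels of 3.25 and 4.65 UPM, and how much of that list these cells make themselves was not tested. No fibroblast list was used, although fibroblast-like cells held most *Eda2r* UMIs before IR. The part of their free RNA in the other classes was not tested. Among these are the non-IR granulosa-like levels of 0.437 UPM (wild-type) and 0.359 UPM (*Chek2*-/-), on which the granulosa-like ratios rest.

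In *Chek2*-/- libraries granulosa-like cells went from 0.359 to 1.12 UPM (3.12, 1.97 to 5.10), epithelial-like cells had 0 and 8 UMIs (a lower limit of 1.59 for the ratio, but a level with IR of 1.66 UPM whose lower limit of 0.718 UPM is under the 0.880 UPM of free RNA by the granulosa list), and fibroblast-like cells went from 4.22 to 5.55 UPM (1.32, 1.13 to 1.54). Oocyte-like cells were at 0.590 and 0.672 UPM on 7 and 12 UMIs (1.14, 0.414 to 3.42), so a change within these limits was not detectable at this depth. All 4 granulosa-like clusters of the wild-type libraries had ratios above 1 for *Eda2r*, at 13.5 in the dividing cluster 0, 38.4 in cluster 1, 11.2 in cluster 2 and 18.9 in cluster 11. Together these clusters held only 30 *Eda2r* UMIs in the wild-type non-IR library, so nothing is read from the order of these ratios.

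The oocyte-like cells of the wild-type IR library were unlike those of the other libraries in depth and in make-up. Their median was 14535 UMIs per cell, against 121594 to 181495 in the other 3 libraries, and 31.5% of the genes tested in them were above and 29.6% below a ratio of 1 beyond counting error. Of its 172 oocyte-like cells 77 formed sub-cluster 7, which held no cell of another library, and 64 fell in sub-cluster 4. In sub-cluster 7 *Eda2r* was at 15.2 UPM (limits 12.8 to 17.9), with granulosa markers at 95.2 UPM in sum where granulosa-like cells held 3880 UPM. In sub-cluster 4 it was at 20.4 UPM (13.7 to 29.1) in wild-type IR cells and 1.77 UPM in wild-type non-IR cells, with granulosa markers at 459 UPM. The growing oocyte markers *Gdf9*, *Zp1*, *Zp2*, *Zp3* and *Bmp15* summed to 10400 UPM in sub-cluster 0, against 7050 UPM in sub-cluster 7. The 17 wild-type IR cells of sub-cluster 0 held 2 *Eda2r* UMIs, at 0.816 UPM (0.0988 to 2.95), and its 37 wild-type non-IR cells held 0. Without sub-cluster 4 the oocyte-like ratio of *Eda2r* was 28.6 (15.9 to 56.5). With every cell thinned to 3000 UMIs, which removed 51 of the 172 cells, the levels rested on 2 and 9 UMIs (ratio 7.03, 1.45 to 66.9). Leaving out sub-cluster 4 removed 64 wild-type IR cells but only 17 wild-type non-IR cells. Sub-cluster 3, with granulosa markers at 546 UPM, stayed in and held 81 wild-type non-IR and 2 wild-type IR cells. The part of this uneven make-up in the ratios without sub-cluster 4, of any receptor, was not tested.

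**Figure D3:**
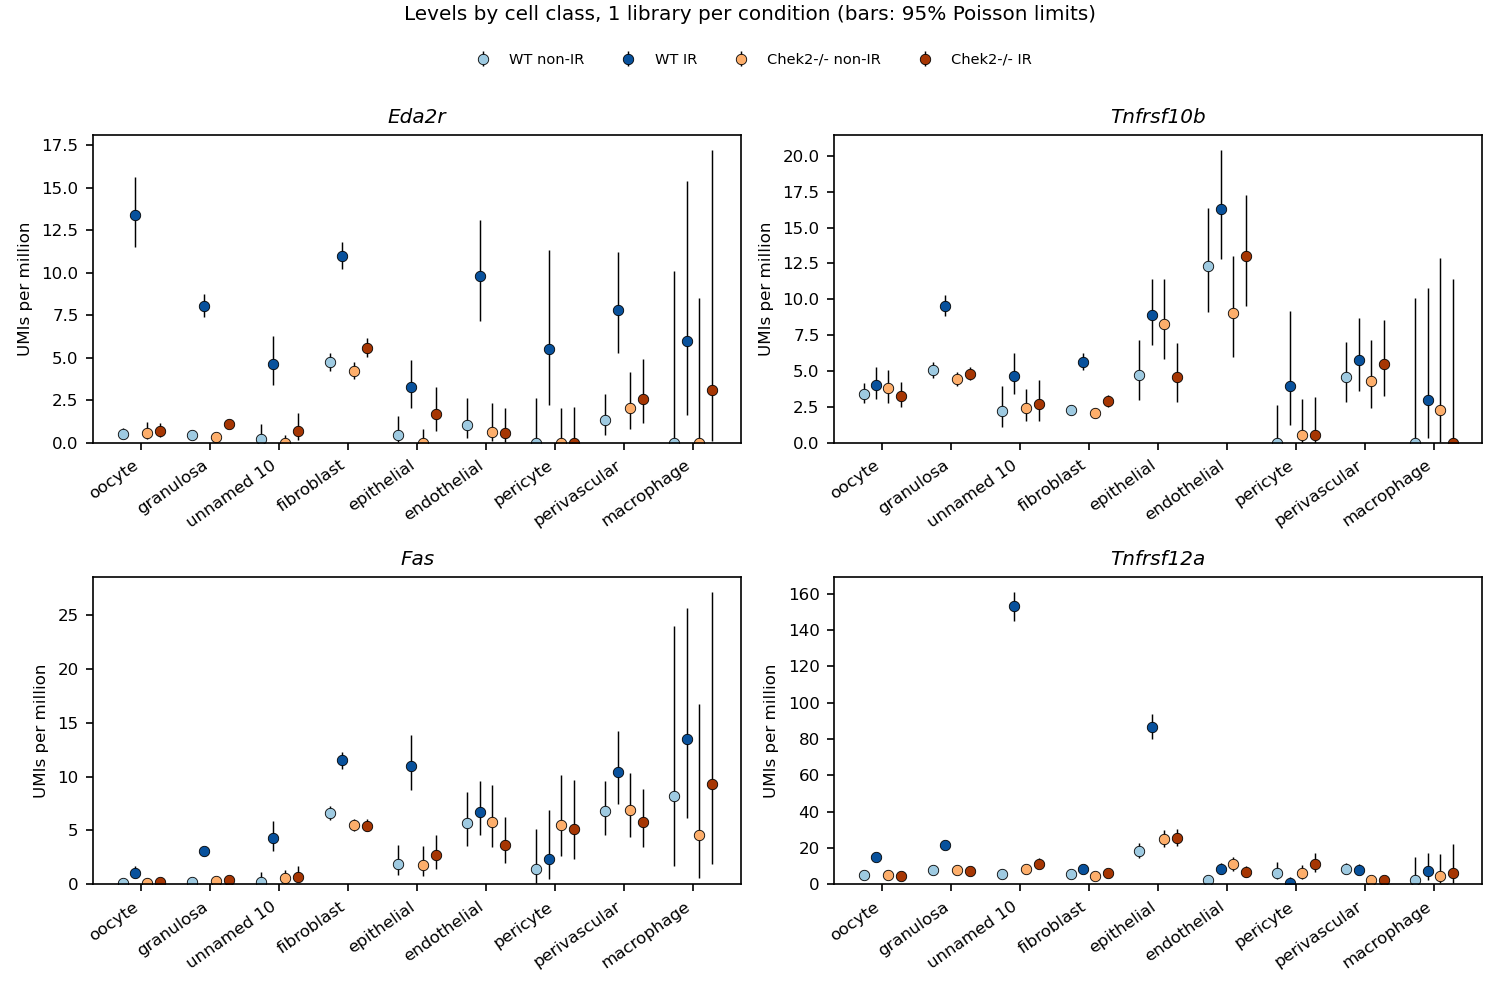
Levels of *Eda2r*, *Tnfrsf10b*, *Fas* and *Tnfrsf12a* in UPM (linear axes from 0, each gene with its own scale) in 9 cell classes of the 4 single-cell libraries, with exact 95% Poisson limits as bars. *Eda2r* reaches 13.4 UPM in oocyte-like cells of the wild-type IR library and at most 0.672 UPM in those of the other 3, and *Tnfrsf12a* reaches 153 UPM in cluster 10.

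*Tnfrsf10b* was spread over many classes, with its highest median over the 4 libraries in endothelial-like cells, at 9.03 to 16.3 UPM. Over all cells it went from 3.78 to 7.37 UPM in wild-type (ratio 1.95, 1.78 to 2.14) and from 3.48 to 3.99 UPM in *Chek2*-/- libraries (1.15, 1.03 to 1.28). In wild-type libraries the ratio was 2.48 (2.05 to 3.02) in fibroblast-like cells, 1.89 (1.66 to 2.16) in granulosa-like cells, 1.89 (1.15 to 3.22) in epithelial-like cells and 2.10 (1.07 to 4.52) in cluster 10. The endothelial-like ratio was 1.32 (0.908 to 1.94). Oocyte-like cells were at 3.39 and 4.03 UPM (ratio 1.19, 0.838 to 1.68), with limits that lie apart from those of *Eda2r* in the same cells. In *Chek2*-/- fibroblast-like cells *Tnfrsf10b* was higher with IR, at 2.07 and 2.88 UPM (ratio 1.39, 1.11 to 1.74), on 136 and 200 UMIs. The *Chek2*-/- granulosa-like ratio was 1.09 (0.933 to 1.27). In *Chek2*-/- epithelial-like cells *Tnfrsf10b* was lower with IR, at 8.25 and 4.57 UPM (ratio 0.554, 0.312 to 0.965), on 37 and 22 UMIs.

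*Fas* was at 2.88 and 6.76 UPM over all wild-type cells (ratio 2.34, 2.12 to 2.60) and at 2.73 and 2.5 UPM over all *Chek2*-/- cells (0.917, 0.805 to 1.05). Fibroblast-like cells carried 81.9% of its UMIs without and 63.5% with IR in wild-type libraries and went from 6.59 to 11.5 UPM (1.74, 1.55 to 1.96). Granulosa-like cells went from 0.204 to 3.06 UPM on 14 and 214 UMIs (15.0, 8.75 to 27.9) and epithelial-like cells from 1.93 to 11 UPM (5.71, 2.86 to 13). Cluster 10 had 1 and 41 UMIs (21.6, 3.66 to 872). The measure of free RNA was not applied to *Fas* and used no fibroblast list, so the part of free RNA in these levels was not tested. In *Chek2*-/- libraries the granulosa-like ratio was 1.33 (0.739 to 2.44) and the fibroblast-like ratio 0.989 (0.854 to 1.15). The bulk fold change of 1.15 had an upper limit of 0.72 on the log2 scale, which lies below the ratio over all cells.

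*Tnfrsf12a* differed between the assays. The log2 fold change in bulk wild-type tissue was 0.06 with limits of -0.23 to 0.35, while over all wild-type cells the level was 6.83 UPM without and 24.9 UPM with IR (ratio 3.65, 3.43 to 3.88) and over all *Chek2*-/- cells 6.89 and 7.16 UPM (1.04, 0.961 to 1.13). Ovaries for single cells were dissociated by enzymes at 37 °C, bulk ovaries were not, and the part of this step in the gap was not tested. Cluster 10 held 32.5% of the *Tnfrsf12a* UMIs of the wild-type IR library in 5.31% of its UMIs, against 2.36% in 2.68% without IR. Its level was 6.03 UPM on 30 UMIs without and 153 UPM on 1442 UMIs with IR (ratio 25.3, 17.6 to 37.6), and 8.65 and 11.4 UPM in *Chek2*-/- cells (1.32, 0.936 to 1.86). Epithelial-like cells followed, at 18.4 and 86.5 UPM in wild-type (4.69, 3.74 to 5.95) and 24.8 and 25.8 UPM in *Chek2*-/- libraries (1.04, 0.800 to 1.36). Wild-type pericyte-like cells went the other way, at 6.35 and 0.785 UPM on 9 UMIs and 1 UMI (0.124, 0.00282 to 0.891), but with doublets kept they were at 6.56 and 7.77 UPM (1.19, 0.490 to 2.92), and perivascular-like cells were at 8.52 and 8.09 UPM (0.95, 0.573 to 1.56).

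The granulosa-like clusters gave unlike ratios for *Tnfrsf12a*. Cluster 11, led by *Calb1*, went from 6.10 to 32.3 UPM in wild-type cells (ratio 5.30, 4.46 to 6.32) and from 6.37 to 8.84 UPM in *Chek2*-/- cells (1.39, 1.10 to 1.76). The whole granulosa-like class of the *Chek2*-/- libraries was at 0.945 (0.839 to 1.06). The dividing cluster 0 had a ratio of 1.81 (1.46 to 2.25), cluster 1 of 1.12 (0.849 to 1.48) and cluster 2 of 0.933 (0.738 to 1.18) in wild-type cells. With the finer clustering, which counted the cluster led by *Crygb* and *Adora1* as granulosa-like, the ratio of the granulosa-like class went from 2.66 to 4.68. In oocyte-like cells the wild-type levels were 5.19 and 14.9 UPM (2.87, 2.31 to 3.57). Of the 199 UMIs with IR, 127 came from sub-cluster 4, at 86.2 UPM, and sub-cluster 7 was at 5.75 UPM. Without sub-cluster 4 the levels were 5.10 and 6.04 UPM (1.18, 0.878 to 1.58). Fibroblast-like cells were at 5.57 and 8.52 UPM in wild-type (1.53, 1.34 to 1.75) and 4.81 and 6.10 UPM in *Chek2*-/- libraries (1.27, 1.09 to 1.47).

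**Figure D4:**
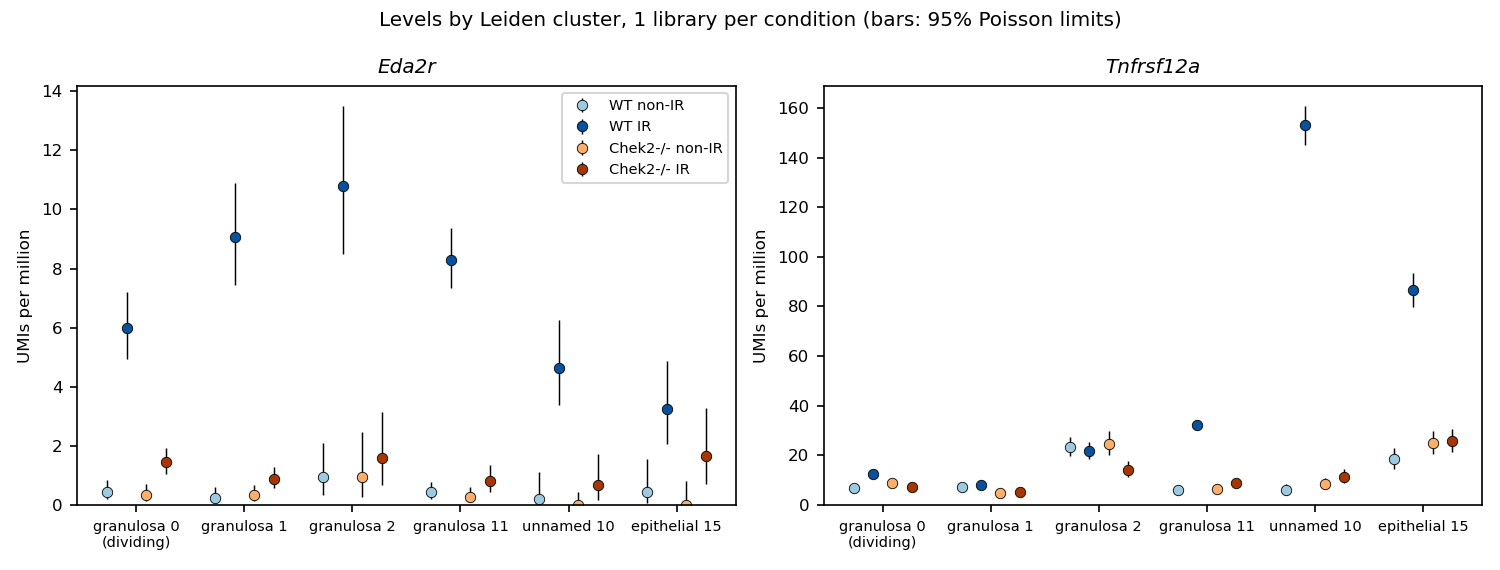
Levels of *Eda2r* and *Tnfrsf12a* in UPM (linear axes from 0) in the 4 granulosa-like clusters, cluster 10 and the epithelial-like cluster 15 of the 4 single-cell libraries, with exact 95% Poisson limits as bars. In wild-type IR cells *Eda2r* sits at 3.25 to 10.8 UPM in all 6 clusters, while *Tnfrsf12a* is at 153 UPM in cluster 10 and 8.06 UPM in cluster 1.

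The remaining 4 members had wide ranges of level over the cell classes. *Tnfrsf1a* was highest in endothelial-like cells, at 187 to 226 UPM over the 4 libraries, followed by macrophage-like cells at 118 to 164 UPM, and lowest in oocyte-like cells at 6.74 to 14.8 UPM. The ranges of epithelial-like (94.7 to 125 UPM), pericyte-like (86.1 to 114 UPM) and cluster 10 cells (81.2 to 98.6 UPM) overlapped. Its wild-type ratio was 1.20 (1.16 to 1.25) in fibroblast-like and 1.16 (1.10 to 1.22) in granulosa-like cells and 0.869 (0.773 to 0.977) in epithelial-like cells, and the limits of the other 6 classes held 1. For oocyte-like cells this held only with sub-cluster 4 included. Without sub-cluster 4 their wild-type *Tnfrsf1a* ratio was 0.721 (0.578 to 0.894). Sub-cluster 3, with granulosa markers at 546 UPM and 81 wild-type non-IR against 2 IR cells, stayed in, and its part was not tested. Over all cells the *Tnfrsf1a* ratio was 1.25 (1.22 to 1.29) in wild-type and 0.998 (0.972 to 1.03) in *Chek2*-/- libraries. The wild-type value lay above the ratio in each of the 9 classes. Oocyte-like cells, lowest for this gene, held 15.6% of wild-type UMIs without and 7.53% with IR, and the part of this make-up in the ratio was not tested. *Tnfrsf1b* was at 43.6 to 64.9 UPM in macrophage-like cells and 10.3 to 20.1 UPM in epithelial-like cells, with at most 5.43 UPM in the other 7 classes. In the 197 cells left unnamed, pooled, it was at 21.4 to 41.2 UPM on 9 to 22 UMIs. In epithelial-like cells it was higher after IR in both genotypes, with ratios of 1.70 (1.24 to 2.37) and 1.56 (1.07 to 2.30), although with cells thinned to 3000 UMIs the *Chek2*-/- value turned to -0.56 on the log2 scale.

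*Tnfrsf21* was at 99.7 to 119 UPM in pericyte-like cells, above the 18.5 to 32.7 UPM of macrophage-like cells and the values of at most 10.7 UPM in the other 7 classes. The 197 cells outside the classes, pooled, were at 7.99 to 19.0 UPM on 3 to 12 UMIs. In the wild-type libraries pericyte-like cells held 16.1% and 12.3% of its UMIs in 0.762% and 0.716% of all UMIs. Pericyte-like ratios after IR were 0.840 (0.662 to 1.06) and 0.890 (0.727 to 1.09), and in wild-type epithelial-like cells the level was 3.64 and 8.76 UPM (2.40, 1.39 to 4.39). *Ltbr* was at 53.2 to 67.4 UPM in endothelial-like cells and 3.37 to 7.71 UPM in oocyte-like cells, with overlapping ranges of 28.1 to 36.4 UPM in epithelial-like, fibroblast-like, granulosa-like, perivascular-like and cluster 10 cells. Over all cells its ratio was 1.17 (1.12 to 1.21) in wild-type and 1.05 (1.01 to 1.09) in *Chek2*-/- libraries. In wild-type endothelial-like cells it was 1.27 (1.06 to 1.52). Its oocyte-like ratio was 0.717 (0.543 to 0.936) in wild-type and 1.60 (1.09 to 2.37) in *Chek2*-/- libraries. The wild-type oocyte-like ratio was 0.425 (0.291 to 0.606) without sub-cluster 4 and turned to the other side of 1, at a log2 ratio of 2.64, with thinned cells. Oocyte-like cells held 4.47% and 1.33% of the wild-type *Ltbr* UMIs. Their granulosa list stood at 24.7% without and 10.3% with IR of its level over all wild-type cells. The part of free RNA in the oocyte-like ratios was not tested, nor that of sub-cluster 3, which stayed in.

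**Figure D5:**
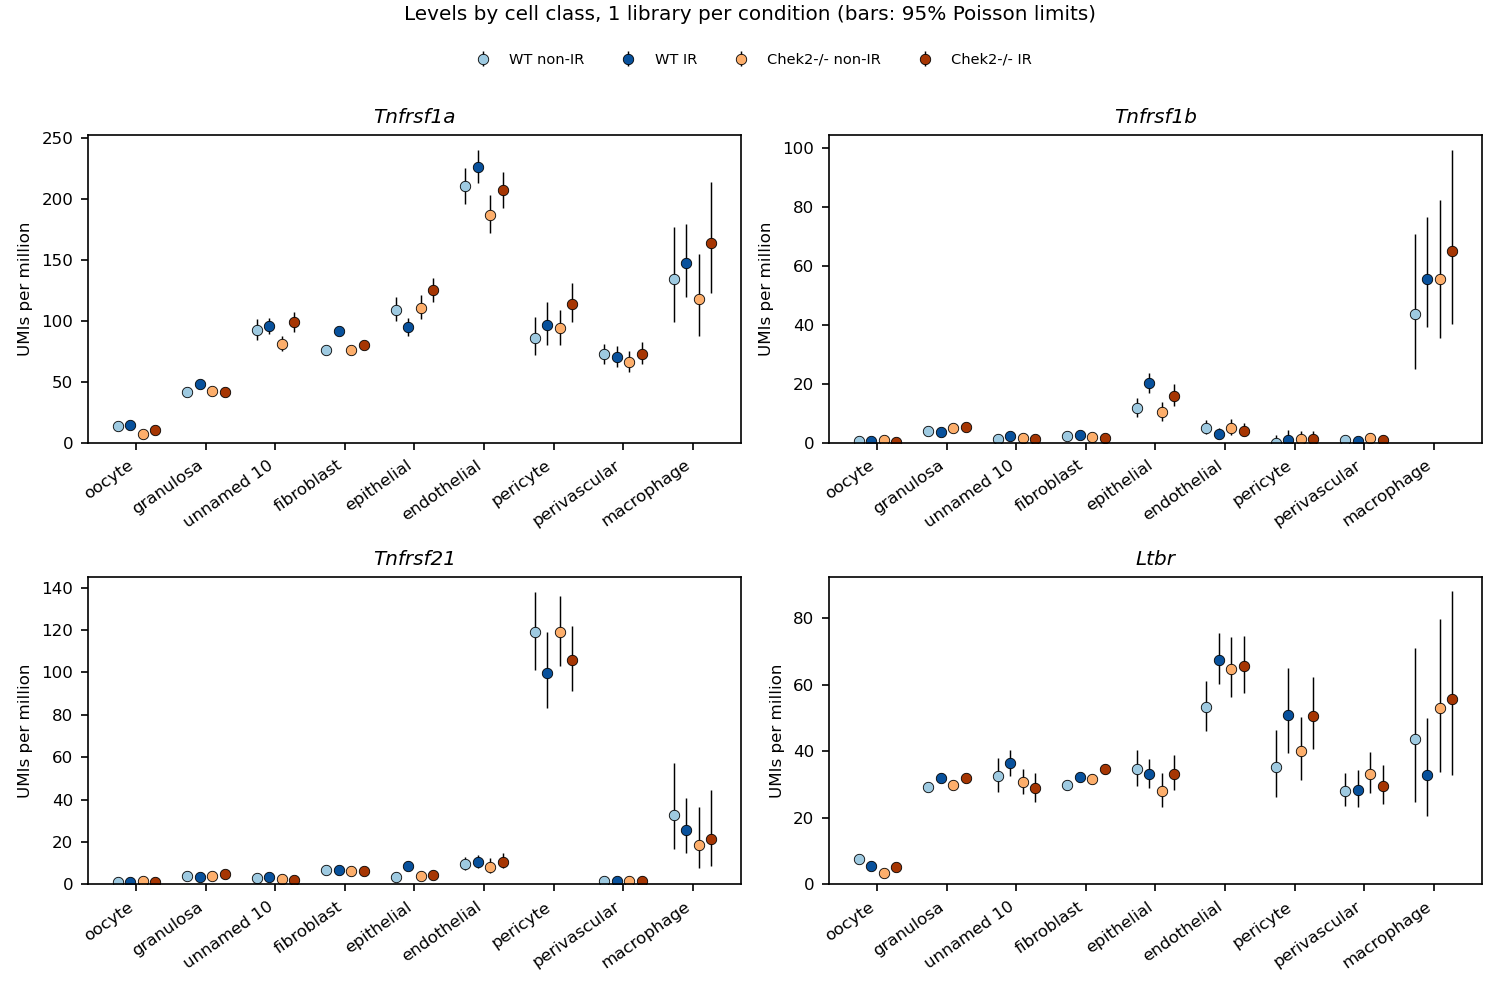
Levels of *Tnfrsf1a*, *Tnfrsf1b*, *Tnfrsf21* and *Ltbr* in UPM (linear axes from 0, each gene with its own scale) in 9 cell classes of the 4 single-cell libraries, with exact 95% Poisson limits as bars. *Tnfrsf21* lies at 99.7 to 119 UPM in pericyte-like cells, *Tnfrsf1b* at 43.6 to 64.9 UPM in macrophage-like cells, and *Tnfrsf1a* and *Ltbr* are lowest in oocyte-like cells.

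Among the pathway genes that were called in bulk ovaries, *Edaradd* and *Traf3* had their largest wild-type ratios in oocyte-like cells among the classes with at least 20 UMIs. *Edaradd* went from 0.311 to 11.9 UPM there on 9 and 160 UMIs (ratio 38.4, 19.7 to 85.5), with 3 and 3 UMIs in *Chek2*-/- oocyte-like cells and a ratio of 0.962 (0.638 to 1.45) in wild-type granulosa-like cells. *Traf3* went from 13.3 to 65.0 UPM in oocyte-like cells (4.87, 4.32 to 5.51) and was at 11.4 and 10.9 UPM in granulosa-like cells (0.956, 0.864 to 1.06). Oocyte-like cells of the *Chek2*-/- libraries were at 12.9 and 13.6 UPM for *Traf3* (1.05, 0.856 to 1.3). *Traf5* was at 5.91 and 14 UPM in wild-type oocyte-like cells (2.37, 1.92 to 2.94). *Icam1* was highest in endothelial-like cells, at 134 to 231 UPM, and over all wild-type cells had a ratio of 1.62 (1.55 to 1.69). *Cxcl1* had ratios above 1 over all cells in both genotypes, at 2.48 (2.30 to 2.68) and 1.64 (1.54 to 1.74), where bulk wild-type ovaries were at 4.76 and 4.63 CPM. In cluster 10 *Cxcl1* was at 17.7 and 79.1 UPM in wild-type and 75.0 and 140 UPM in *Chek2*-/- cells.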

How the data were processed

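Ovaries were profiled by bulk RNA sequencing (24 libraries) and single-cell RNA sequencing (4 libraries), and samples were grouped by the genotype and treatment in their labels. The authors quantified bulk reads with Salmon 1.3.0 after Trim Galore 0.6.5, inside nf-core/rnaseq, and their deposited table holds estimated counts, not scaled. For single cells the authors ran Cell Ranger (mm10) and deposited counts of UMIs per gene and barcode. Members and lists were chosen with earlier results of these data known. Gene positions are from GENCODE (GRCm38).

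Estimated counts were rounded to whole numbers. A gene needed 10 counts summed over the 24 libraries, and edgeR 4.0.16 (R 4.3.3; TMM, quasi-likelihood test, 1 coefficient per group) tested 26790 genes with Benjamini-Hochberg adjustment over all of them. Called means an adjusted p of at most 0.05. DESeq2 1.42.0, limma-voom (limma 3.58.1), other filters and scalings, covariates and left-out libraries were alternatives, and leaving out the libraries that stood apart was added after the data were seen. Tested on simulated data with 100 changed genes per fold, the wild-type comparison called 95% of 2-fold and 98% of 3-fold genes. The changed genes were drawn only from genes of higher mean count, so these shares do not hold for genes of low count.

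Cells with at least 1000 genes, at most 20% mitochondrial and at most 50% ribosomal UMIs were kept, Scrublet doublets (4.02% to 5.47% per library) were removed, and Leiden clustering at resolution 0.5 used 2000 variable genes without the members and pathway lists (scanpy 1.11.5, Python 3.11.15). A class needed 60% and at least 3 of its markers, each in 25% of cells and 2-fold above the median cluster, and the rule was completed after the clusters were seen. A cluster of 158 cells with erythroid markers also passed fibroblast and granulosa lists and was not used. UMIs were summed per class and library, with exact Poisson limits for levels and exact conditional binomial limits for ratios. Single-cell libraries were compared without p-values. Named genes were the members, *Chek2*, called genes of the pathway lists, and the 3 genes of highest Pearson r with each called member. A few others of the lists (*Cd27*, *Tnfsf18*, *Eda*, *Tnfsf12*, *Tnfsf10* and *Fasl*) were named after their values were seen. In the 36 pairs of same-numbered libraries from different groups, deviations from group means correlated at -0.37 to 0.96, 19 of them over 0.1. Of the 24 libraries 9 correlated best with their own number. Between *Chek2*-/- non-IR and IR libraries of the same number r ran from 0.02 to 0.96. Whether same-numbered libraries share a batch was not tested. Replicate numbers were not used in the main fit and served as a block in an alternative.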

Additional observations from a re-analysis of the deposited data

Results flagged for a closer look

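Among the 32 sets of 6 libraries (8 receptors in 4 groups) 7 held a library set far apart from its group, where chance flags about 1 in 20. Of these, 5 were *Chek2*-/- libraries numbered 6. *Fas* was at 16.3 CPM in *Chek2*-/- IR replicate 6, with the next library at 7.08 CPM. *Tnfrsf1a* was at 162 CPM there, against 125 CPM. *Tnfrsf1b* was at 56.0 CPM in non-IR and 57.4 CPM in IR replicate 6, against 37.8 and 37.9 CPM. *Tnfrsf21* was at 21.9 CPM in non-IR replicate 6, against 14.5 CPM. These 2 libraries also had the summed epithelial list at 1181 and 1009 CPM and the oocyte list at 1058 and 1188 CPM. Their pericyte list was at 806 and 663 CPM, and the part of their cell mixture in these levels was not tested.

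The other 2 were wild-type libraries. *Tnfrsf10b* was at 19.8 CPM in non-IR replicate 5, with the next library at 22.2 CPM, and *Tnfrsf21* was at 14.7 CPM in IR replicate 3, with the next at 11.6 CPM. That IR library held the neutrophil list at 1194 CPM.

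The effect of IR differed between genotypes for 2 receptors, by 1.25 for *Eda2r* and by 0.45 for *Tnfrsf10b* on the log2 scale, wild-type minus *Chek2*-/- (edgeR interaction term, adjusted p = 9.4e-08 and 0.0216).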

How the results depend on the processing

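The number of receptors called after IR was 2 in wild-type ovaries, 1 in *Chek2*-/- ovaries and 2 for the difference between them, and it did not change in any fit that left out 1 library (2 to 2, 1 to 1 and 2 to 2). With at least 2-fold required the counts were 1, 0 and 1. With only the groups compared *Chek2*-/- ovaries had 0, and the difference between genotypes had 1 with the oviduct covariate or without both libraries of high neutrophil level. Between genotypes without IR 2 receptors were called, with 0 to 2 when 1 library was left out, 1 by limma-voom, 1 with only the groups compared, 1 without both *Chek2*-/- libraries numbered 6, 0 with the oviduct covariate and 0 with at least 2-fold. Leaving out both libraries of high erythroid level changed none of the 3 counts it bears on (1, 2 and 2). With replicate number as a block, 2, 1, 2 and 2 receptors were called in the 4 contrasts, and over all genes 661, 4, 281 and 2025.

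Over all genes the calls were 646 (516 to 657 with 1 library left out, 288 to 816 otherwise), 3 (2 to 4, 1 to 14), 277 (221 to 323, 167 to 458) and 1430 (573 to 1794, 211 to 2507). The cause of these differences was not tested.

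In single cells 28 wild-type and 12 *Chek2*-/- pairs of class and receptor lay above 1, and 17 and 3 with cells thinned to 3000 UMIs, where fewer UMIs were left. Of 428 alternative ratios 392 stayed within their counting limits, 32 moved and 4 turned direction on the log2 scale. Thinning gave 2.64 for *Ltbr* in wild-type oocyte-like cells, -0.56 for *Tnfrsf1b* in *Chek2*-/- epithelial-like cells and -0.09 for *Ltbr* in *Chek2*-/- granulosa-like cells, and keeping doublets gave 0.25 for *Tnfrsf12a* in wild-type pericyte-like cells. Depth limits *Eda2r* and *Fas* in pericyte-like and macrophage-like cells, and *Fas* also in *Chek2*-/- oocyte-like cells (2 and 4 UMIs). With 1 library per condition no single-cell ratio could be set against animal-to-animal spread.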
